A study of Drosophila melanogaster with 4 samples.

Results

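The H3 clusters of the interior of the X chromosome of *Drosophila melanogaster* are regions where DNA from chromatin immunoprecipitation and sequencing (ChIP-seq) with an antibody against histone H3 was listed by the authors as significantly enriched. A cluster belonged to the X interior when its midpoint lay past the first 2 Mb of X and at or before base 20422827 in FlyBase release 5, so that 2 Mb at each end of the arm were left out. This rule took 2278 of the 18424 clusters of the list made for the whole series (the series list), 386 of 3717 in ChIP replicate 1 and 249 of 2198 in ChIP replicate 2. The rule used position alone and no length or score. It was chosen with earlier results of these data known, so the values below may not be independent of that choice. At the low end the last cluster outside had a score of 0.40 and a length of 1281 bp, and the first inside had 0.46 and 3151 bp. At the high end the last inside had 0.47 and 1805 bp, and the next outside had 0.49 and 1217 bp. All 4 libraries (2 H3 ChIP, 2 input) came from wild type embryos of the strain Oregon-R (Oregon-R-modENCODE), staged 14-16hr, fixed with 1.8% formaldehyde, with no treatment and no other allele. The sex of the embryos is not among the labels. Each input, chromatin DNA without immunoprecipitation, served the list of the like-numbered ChIP replicate, per the labels, and its use in the series list is not stated there. The labels do not name separate embryo collections for the replicates, so their spread may be technical.

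H3 is a core histone, a part of the protein octamer around which the DNA of a nucleosome is wound. An antibody against H3 itself, rather than against a modified form, reports where nucleosomal DNA is recovered, whatever marks it carries. The X is the only arm present as a single copy in males of this species, whereas females carry a pair. In males the MSL complex binds genes of the X, acetylates histone H4 and raises their transcription, which is known as dosage compensation. These statements are background and were not measured here.

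Clusters were sparse on the X interior. The series list held 124 clusters per Mb over the 18.4 Mb of the X interior and covered 19.7% of it. The interiors of 2L, 2R, 3L and 3R, cut by the same 2 Mb, held 146 (2L) to 174 (2R) per Mb and were covered to 23.4 to 29.6%. Replicate 1 had 21.0 clusters per Mb on X, with 28.5 to 38.9 on the autosome arms. Replicate 2 had 13.5 per Mb on X, with 15.7 to 22.6 on the autosome arms. The X value lay below that of every autosome arm in each of the 3 lists. Counts in complete 1-Mb windows were less set apart. In the series list they ran from 89 to 171 on X and from 92 to 200 on 2L. In replicate 2 the median count per window was 13.0 on both X and 2L. Relative to the 80.6 Mb of the 4 autosome interiors together, density on X was 0.772 in the series list (exact 95% interval 0.738 to 0.808). It was 0.636 in replicate 1 (0.570 to 0.708) and 0.717 in replicate 2 (0.625 to 0.821), a mean of 0.677 ± 0.058 (SD, n = 2). In an exact binomial test (two-sided) the difference passed the threshold of 0.05 in all lists, with adjusted p = 3.7e-31, 2.9e-18 and 5.2e-07 over the 3 lists. These p-values and intervals cover counting error and treat clusters as independent. The variance of counts per 1-Mb window on X was 4.29, 2.58 and 2.05 times their mean, more than independent, evenly spread clusters would give. The intervals are thus too narrow and the p-values too small. The direction depended on which scores were counted: among the upper 50% of each list by score, the ratios turned to 1.48, 1.14 and 1.44. That cut favours X through the scores described next.

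The 2 Mb at the ends differed from the interior in opposite directions. The first 2 Mb had 158.5 series clusters per Mb, with 45.5 in replicate 1 and 30.0 in replicate 2. The last 2 Mb, on the side of the centromere, had 73.0, 10.0 and 9.5 per Mb in the same order. The interior lay between them in all 3 lists.

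Scores were higher on the X interior than on any autosome interior. The authors' score is a log2 value, and its median on X was 0.47 in the series list, where the 4 autosome arms had medians of 0.40 to 0.41. Replicate 1 gave 0.62 on X and 0.54 on each autosome arm, and replicate 2 gave 0.80 on X and 0.66 to 0.68 on the autosome arms. The difference between the X median and the pooled autosome median was 0.067 in the series list, 0.079 in replicate 1 and 0.13 in replicate 2, with a replicate mean of 0.10 ± 0.035 (SD, n = 2). As a linear ratio this is 1.05, 1.06 and 1.09. Of the X clusters, 1927 of 2278 (84.6%), 319 of 386 (82.6%) and 220 of 249 (88.4%) scored above the autosome median of their list. No test over replicates was made, since an exact permutation test over 2 replicates cannot reach the 0.05 threshold and clusters are not replicates of a condition.

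The difference in score was not a matter of a few clusters. It was present at each percentile computed and was larger at the 95th than at the 5th in every list. At the 5th percentile X exceeded the pooled autosomes by 0.052 in the series list, 0.077 in replicate 1 and 0.099 in replicate 2. At the 95th percentile the differences were 0.085, 0.10 and 0.17. In replicate 1 the difference first fell, to 0.071 at the 25th percentile, and exceeded its value at the 5th from the median on. At each percentile, in each list, the X value lay above those of all 4 autosome arms.

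Along the chromosome the score was high throughout. In the series list the 18 complete 1-Mb windows of the X interior had median scores of 0.45 to 0.49, and the 79 windows of the autosome interiors had 0.39 to 0.42. The groups of windows did not overlap. In replicate 1 the X windows ran from 0.57 to 0.66 and the autosome windows from 0.46 to 0.58, and 16 of 18 X windows lay above every autosome window. In replicate 2 the X windows ran from 0.74 to 0.89 and the autosome windows from 0.61 to 0.80, and 9 of 18 lay above every autosome window. The highest autosome window of replicate 2, on 2L, held 7 clusters, so its median rests on few values. Windows are stretches of 1 list and not replicates. The order of the X windows by score was not shared between the replicates: across the 18 windows their median scores had a rank correlation of -0.012 (Pearson's r = 0.049), a description without a test.

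**Figure D1:**
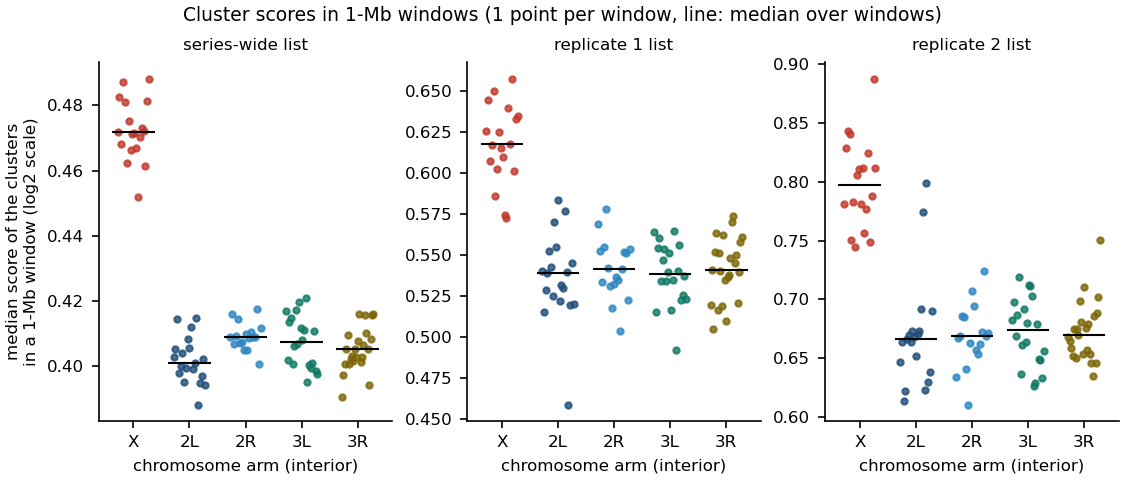
Median cluster score (log2 scale, vertical axis) in each complete 1-Mb window of the X, 2L, 2R, 3L and 3R interiors, in 3 panels for the series list, replicate 1 and replicate 2; each point is 1 window and each line the median over windows. In the series panel all 18 X windows lie above all 79 autosome windows, and the replicate panels show the same shift with some overlap.

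Lengths on the X interior were close to those of the autosomes. The median was 1426 bp in the series list, within the 1416 bp (2L) to 1491 bp (2R) of the autosome arms. It was 1515.5 bp in replicate 1, where the autosome arms had 1514 to 1547.5 bp, and 1507 bp in replicate 2, above their 1467 to 1501 bp. The difference from the pooled autosomes was -25 bp, -6 bp and 20 bp, and its sign was not shared by the lists. No X cluster was shorter than 1001 bp (series list) or 1301 bp (either replicate). Broad clusters, of at least 3 kb, made up 80 of the 2278 series X clusters (3.51%), below the 4.12 to 6.00% of the autosome arms. The replicates did not share that order: 9 of 386 (2.33%) reached 3 kb in replicate 1, above the 0.924 to 1.05% of the autosome arms, and 2 of 249 (0.803%) in replicate 2, within 0.258 to 1.19%. Length and score were weakly related across X clusters, with opposite signs in the series list (rank correlation -0.12, n = 2278 clusters) and the replicates (0.25, n = 386, and 0.19, n = 249).

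Neighbouring clusters stood farther apart on X. The median gap from the end of a cluster to the start of the next was 3753 bp in the series list, against 2382 bp (2R) to 3189 bp (2L) on the autosome arms. It was 28544 bp in replicate 1 (autosome arms 14352 to 19523 bp) and 45412.5 bp in replicate 2 (27892 to 38164.5 bp). The median gap on X was thus the longest of the 5 arms in each list, 1.38, 1.66 and 1.44 times the pooled autosome median. Gaps of 1000 bp or less made up 18.1% of the 2277 series gaps on X and 21.2 to 27.8% on the autosome arms. They made up 2.08% on X and 3.33 to 5.55% on the autosome arms in replicate 1, and 0.806% and 2.98 to 4.13% in replicate 2. The spread of gaps relative to their mean was not set apart: the coefficient of variation was 1.22 on X and 1.21 to 1.29 on the autosome arms in the series list. Gap lengths restate density in part, and their differences were not tested separately.

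**Figure D2:**
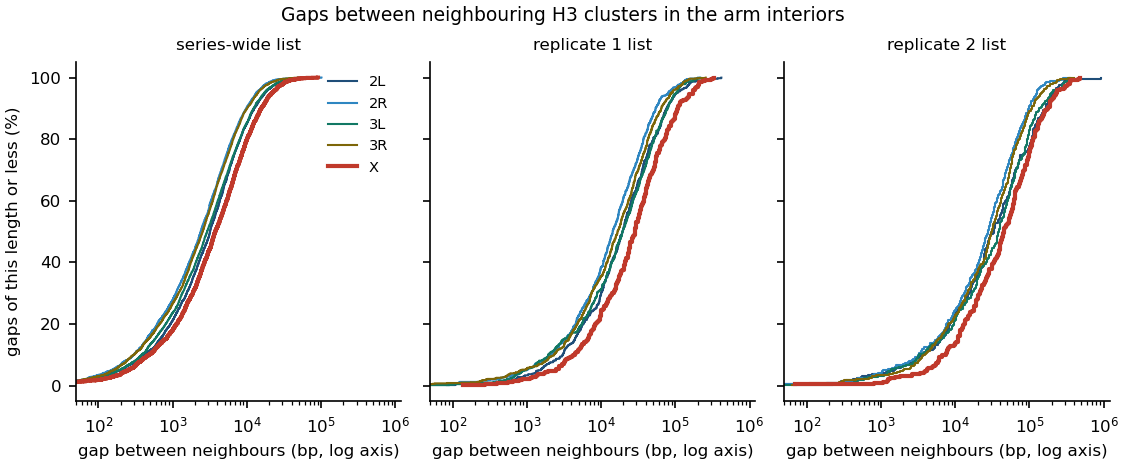
Cumulative share of gaps (vertical axis, %) up to a given length (horizontal axis, bp, log scale) between neighbouring clusters in the interiors of X and 4 autosome arms, 1 panel per list. The X line lies to the right of the others at the median and the quartiles, with medians of 3753, 28544 and 45412.5 bp. The longest gap of each list lies on an autosome arm.

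Clusters were spread unevenly along the X. The series count per 1-Mb window ran from 89 to 171 with a median of 119.5. Replicate 1 ran from 8 to 32 and replicate 2 from 6 to 27. The variance of the counts was 4.29 times their mean in the series list, 2.58 times in replicate 1 and 2.05 times in replicate 2. On the autosome arms the same ratio ran from 2.61 (2R) to 5.72 (2L) in the series list.

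The densest stretches repeated in both replicates. The first window, which ends at 3000000, held 171 series clusters, which covered 30.4% of it, with 32 clusters in replicate 1 and 27 in replicate 2. It ranked 1 of 18 in each list, level with 2 other windows in replicate 1. The window from 18000001 to 19000000 held 170, with 32 and 22 in the replicates, and ranked 2, 1 and 2. The window from 5000001 to 6000000 held 153, with 31 and 17, and ranked 3, 4 and 3.

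The sparsest stretches repeated less closely. The window from 3000001 to 4000000, next to the densest one, held 89 series clusters over 14.1% of its length, with 15 in replicate 1 and 11 in replicate 2, ranks 13 and 11 of 18. The window from 16000001 to 17000000 held 94, with 14 and 10, ranks 16 and 13. The window from 12000001 to 13000000 held 101, with 8 and 10, and was the sparsest of replicate 1. In replicate 2 the lowest count, 6, was found from 8000001 to 9000000 and from 13000001 to 14000000.

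Across the 18 windows the counts of the replicates had a rank correlation of 0.562 and a Pearson's r of 0.639, as a description of windows that share 1 chromosome and the same libraries. The rank correlation was 0.382 when the windows were moved by 500 kb and 0.459 over 500-kb windows, so its size rests on where the windows start.

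**Figure D3:**
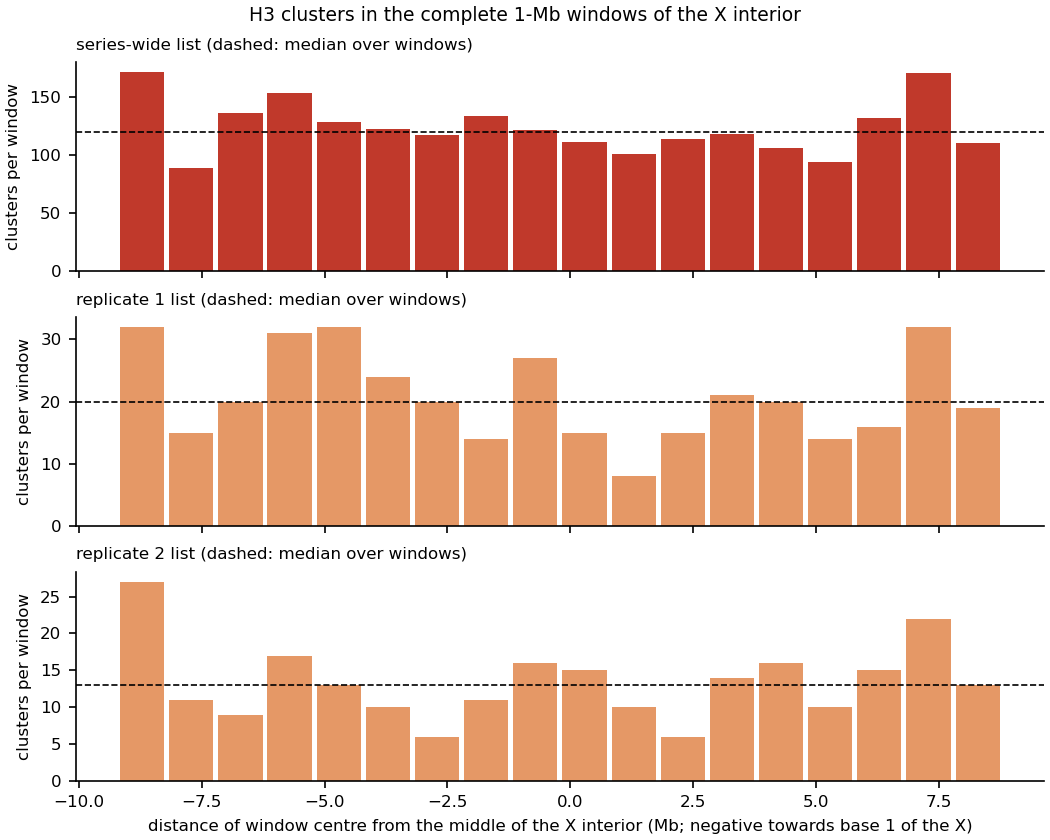
Number of clusters (vertical axis) in each of the 18 complete 1-Mb windows of the X interior, ordered by distance of the window centre from the middle of the interior (horizontal axis, Mb), 1 panel per list, with the median over windows as a dashed line. The first window and the window 1 before the last stand high in all 3 panels, with 171 and 170 series clusters.

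At 100 kb the series list held 1 to 24 clusters per window over 184 windows, with a median of 12.0 and no empty window. The densest was 18100001 to 18200000, with 24 clusters, 6 in replicate 1 and 3 in replicate 2. The sparsest was 15900001 to 16000000, with 1 cluster and 0 in either replicate. Ordered by series count in 4 classes of 46 windows, replicate 1 had totals of 52, 81, 107 and 146 clusters and replicate 2 had 31, 54, 66 and 98. Both replicates rose in every step, which is built in where the series list draws on them. Between the replicates alone the rank correlation over the 184 windows was 0.275.

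The longest gap of the series list on the X interior ran from 15883193 to 15973947, over 90755 bp. Both replicates were also without a cluster there, inside longer gaps of 190345 bp in replicate 1 and 323685 bp in replicate 2. At their mean density a stretch of this length would hold 1.90 and 1.23 clusters, so emptiness in a replicate says little at this list size. The next were 3063143 to 3138787 (75645 bp), 16334415 to 16397421 (63007 bp), 7184801 to 7245765 (60965 bp) and 12928699 to 12985401 (56703 bp). The third and the fourth were free of replicate clusters. A replicate 1 cluster reached 85 bp into the second, and a replicate 2 cluster reached 10 bp into the fifth. Gaps over 20000 bp numbered 136 and made up 22.2% of the interior. Wholly inside them lay 0 clusters of replicate 1 and 3 of replicate 2. On X 377 of 386 clusters of replicate 1 and 237 of 249 of replicate 2 overlapped a series cluster. Few could therefore lie wholly inside any series gap, whatever its length. The share of gaps over 20000 bp was 5.97% on X and 1.48 to 3.72% on the autosome arms. The longest gap of any autosome interior, on 2R, was 101293 bp and so exceeded that of X.

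The longest gaps of the replicates did not coincide. In replicate 1 the longest ran from 12731909 to 13066461 (334553 bp) and held 20 series clusters and 4 of replicate 2. In series density this stretch had 59.8 clusters per Mb, below the 124 of the whole interior. In replicate 2 the longest ran from 7782841 to 8255876 (473036 bp) and held 61 series clusters, 129 per Mb, and 13 of replicate 1. The emptiest X stretch of replicate 2 was thus near the average of the interior in the series list. On 2L the longest gap was longer than on X, at 417590 bp in replicate 1 and 932368 bp in replicate 2.

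Runs of closely spaced clusters, with gaps of 1000 bp or less, were short on X. In the series list 731 of 2278 X clusters (32.1%) lay in 320 runs, and the autosome arms had 37.6 to 46.7% of their clusters in runs. Of the X runs 246 held 2 clusters, 59 held 3, 13 held 4 and 2 held 5, whereas the longest run of an autosome arm held 6 to 9. Runs of 4 or more numbered 8.14 per 10 Mb on X and 14.2 to 34.4 on the autosome arms. Sparser clusters give fewer runs, and no test apart from density was made.

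The 2 runs with most clusters were 2516748 to 2526084 (5 clusters, 86.3% of 9337 bp covered) and 19019130 to 19027928 (5 clusters, 78.2% of 8799 bp). The 13 runs of 4 clusters were tied, and the 3 of lowest position among them are given: 2322220 to 2334782 (92.3% of 12563 bp covered), 2580924 to 2587990 and 4633140 to 4641722. Replicate 1 had 2, 1, 2, 0 and 1 clusters in these 5 runs, in this order, and replicate 2 had 0 in all. In the replicates themselves X held 8 runs in replicate 1 and 2 in replicate 2, all of 2 clusters. Clusters in runs overlapped a replicate in 26.3% of cases and clusters outside runs in 24.1%. Of all series clusters 75.2% overlapped neither replicate on the X interior and 71.9% over all sequences. The 2 shares were thus near the background, and no autosome runs were set beside them.

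Few single clusters of the X interior repeated between the replicates. Of the 386 X clusters of replicate 1, 46 shared at least 1 bp with one of replicate 2 (11.9%, exact 95% interval 8.86 to 15.6), where the share over all sequences was 13.8%. Of the 249 of replicate 2, 46 overlapped replicate 1 (18.5%, interval 13.9 to 23.9), against 23.2% over all sequences. Both shares on X lay below those of the whole lists, whose values are within the intervals. The 46 pairs joined each cluster to 1 partner. Their median overlap was 1229.5 bp, their midpoints lay 459.5 bp apart in the median, and in 42 of 46 the overlap took at least 50% of the shorter cluster. Few clusters without a partner were near misses. Within 1000 bp of the other replicate lay 16 of 340 in replicate 1 and 15 of 203 in replicate 2. The median distance was 21432.5 bp and 14312 bp. Sparser lists give longer distances, and no autosome values were set beside these, so they describe X alone.

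Within the 46 pairs the score was higher in replicate 2 in 41. The median within-pair difference, replicate 2 minus replicate 1, was 0.17, close to the difference of 0.18 between the medians of all X clusters. Scores within pairs had a rank correlation of 0.281 and a Pearson's r of 0.310. Paired and unpaired clusters differed little in median score, with 0.64 and 0.62 in replicate 1 and 0.80 and 0.79 in replicate 2. Median lengths were 1622.5 and 1505 bp in replicate 1 and 1537.5 and 1507 bp in replicate 2.

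**Figure D4:**
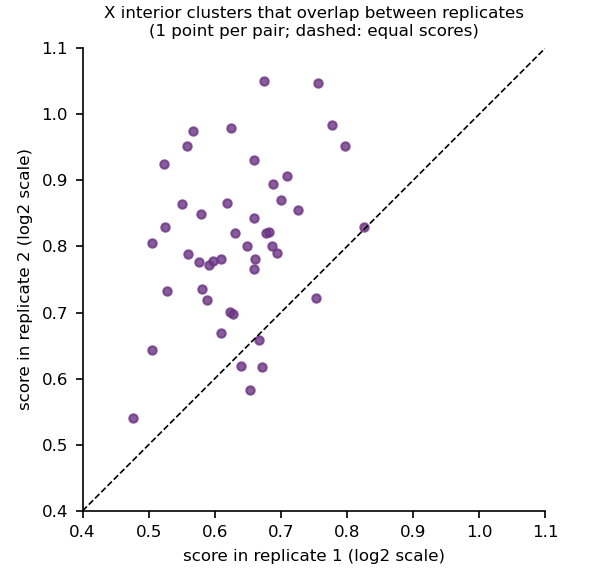
Scores of the 46 overlapping pairs on the X interior, replicate 1 on the horizontal and replicate 2 on the vertical axis (both log2 scale), 1 point per pair, with the line of equal scores dashed. In 41 pairs the point lies above the line.

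Most series clusters of the X interior were listed in neither replicate. Of 2278, 377 overlapped replicate 1 (16.5%, against 19.6% over all sequences) and 237 overlapped replicate 2 (10.4%, against 11.5%). Counted once each, 49 overlapped both (2.15%, exact 95% interval 1.60 to 2.83, against 3.04%), 328 replicate 1 alone (14.4%, against 16.6%) and 188 replicate 2 alone (8.25%, against 8.44%). The other 1713 overlapped neither (75.2%, interval 73.4 to 77.0, against 71.9%). Conversely 377 of 386 X clusters of replicate 1 (97.7%, against 98.2%) and 237 of 249 of replicate 2 (95.2%, against 95.9%) overlapped the series list, so these shares are near the background.

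Support by the replicates went with length. The 49 clusters found in both replicates had a median length of 2513 bp and a median score of 0.53. Those found in replicate 1 alone had 1820 bp and 0.47, those in replicate 2 alone had 1769 bp and 0.48, and those in neither had 1313 bp and 0.47. The autosome interiors had median lengths of 2725, 1891, 1827 and 1295 bp in the same order, so this was not particular to X. In 5 classes of X clusters by rising length, 5.93, 8.55, 18.0, 36.0 and 55.5% overlapped at least 1 replicate. All 49 clusters supported by both replicates were in the upper 2 classes, 5 and 44 of them. In 5 classes of rising score the share with at least 1 replicate ran from 20.9% to 30.0%, and the number with both rose from 1 to 3, 8, 11 and 26. Longer regions overlap others more often by position alone, and how much of these shares that accounts for was not tested.

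**Figure D5:**
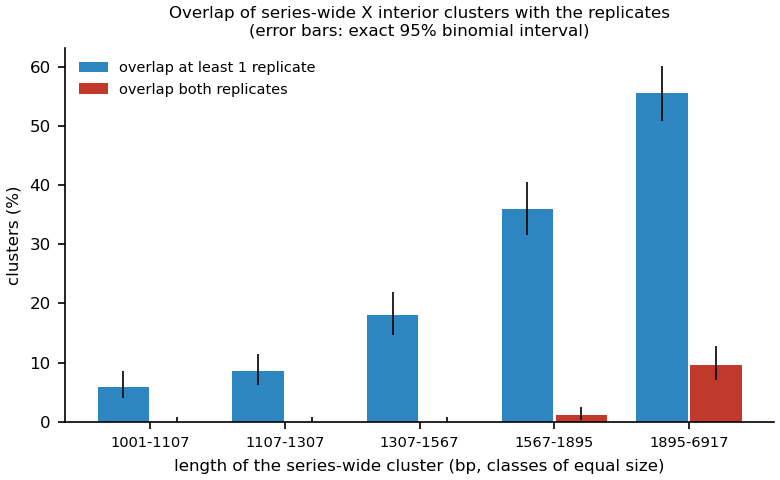
Share of series X interior clusters (vertical axis, %) that overlap at least 1 replicate or both, in 5 classes of equal size by length (horizontal axis, bp); error bars are exact 95% binomial intervals. Both shares are highest in the longest class, at 55.5% and 9.65%.

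The 10 highest-scored series clusters found in both replicates ran from 0.57 to 0.73. The highest, X:11956608-11959262, of 2655 bp, scored 0.73, with 0.83 in replicate 1 and 0.83 in replicate 2. The second, X:20268504-20271240, of 2737 bp, scored 0.70, with 0.67 and 1.05. Here the replicates were far apart, although replicate 2 covered 81.0% and replicate 1 57.4% of the region. X:18904370-18906782 (score 0.68, replicates 0.78 and 0.98), X:17300662-17303012 (0.67, replicates 0.80 and 0.95) and X:19630564-19633280 (0.65, replicates 0.76 and 1.05) followed. The other 5 were X:10390286-10394006, X:15426414-15429054, X:5324402-5326652, X:12177972-12181212 and X:6956380-6958570, with scores of 0.57 to 0.62. Each of the 10 held 1 cluster of each replicate.

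The longest series cluster found in both replicates was X:14946522-14953042, of 6521 bp, with a score of 0.54. Replicate 1 covered 58.4% of it with 1 cluster and replicate 2 covered 22.7%. X:2082674-2088280 followed with 5607 bp, then X:5874990-5880234 with 5245 bp, X:15222306-15227448 with 5143 bp and X:18150588-18155402 with 4815 bp. In X:15222306-15227448 the replicates marked separate parts, replicate 1 from 15222997 to 15224990 and replicate 2 from 15225521 to 15227384. The same held in X:3792590-3797080, of 4491 bp, where replicate 1 ended at 3794444 and replicate 2 began at 3795076. The other 4 measured 3637 to 4437 bp. Only X:10390286-10394006, of 3721 bp, was among both the longest and the highest-scored. Longer than all of these were X:18492728-18499644, of 6917 bp, with 2 clusters of replicate 2, and X:2306676-2313336, of 6661 bp, with 1 cluster of replicate 2. Both held 0 clusters of replicate 1.

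Among clusters of 1 replicate alone, the longest in replicate 1 was X:18479463-18483320, of 3858 bp with a score of 0.66, and the others of the 5 longest measured 3039 to 3648 bp. In replicate 2 the longest was X:18493026-18495730, of 2705 bp with a score of 0.80, and the others measured 2219 to 2409 bp. Both lay in the second densest 1-Mb window. All 10 overlapped a series cluster.

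The last 1.5 Mb of the interior held more of the highest scores than of all clusters. In that stretch, from 18922828, lay 174 of 2278 series clusters (7.64%), but 38 of the 228 in the upper 10% by score (16.7%). In replicate 1 this stretch held 8.29% of clusters and 7 of the 39 highest (17.9%), and in replicate 2 it held 9.24% and 8 of the 25 highest (32.0%). Of the 10 highest scores of each list, 5, 3 and 6 lay there. The median score of the stretch was 0.49, 0.63 and 0.89, and that of the whole interior was 0.47, 0.62 and 0.80. This was not a steady rise along the arm. The 2 Mb past the interior, nearer to the centromere, had medians of 0.47, 0.59 and 0.85, the first 2 of which lay below those of the interior. In replicate 1 the third of the interior nearest base 1 held 18 of the 39 highest scores, and the third nearest the centromere held 14. The stretch was chosen after the scores had been seen, so it was given no test.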

How the data were processed

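H3 ChIP-seq cluster lists were analysed for the X interior. Per the labels, the 2 inputs served the lists of the ChIP replicates with their numbers. The submitters' processing notes name Bowtie 0.12.7, and the build is FlyBase release 5 per the file headers. Not given in the sources used here are the caller, its threshold and the making of the series list. The score deposited by the authors was taken as log2 from its values: in base 2, 99.7%, 99.1% and 100% of scores (series, replicate 1, replicate 2) are the most frequent score plus the logarithm of a fraction of 2 integers, with a denominator of at most 1000 and a relative tolerance of 1e-10. Read depth is unknown, and intervals cover counting error only.

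Gaps, windows, overlaps (at least 1 bp) and percentiles were computed per list. Counts per length were compared by the exact binomial test (two-sided, Clopper-Pearson intervals at 95%), with Benjamini-Hochberg adjustment over the 3 lists. Functions were tested on simulated data, with counts drawn without the excess variance seen between windows. Region members, arms and rules were chosen with earlier results of these data known. Regions named are the 10 series clusters of highest score and the 10 of greatest length among those found in both replicates, the 5 longest gaps, the 5 largest runs (ties to the lower position), the 3 densest and 3 sparsest windows and the 5 longest clusters of 1 replicate. The 2 longest clusters of all, the longest replicate gaps, the lowest replicate 2 windows and the last 1.5 Mb were added after their values were seen. Base composition, sequences and genes need release 5, which was not used here; the gene table at hand is release 6. Python 3.11.15, numpy 2.4.6, pandas 2.3.3, scipy 1.17.1 and matplotlib 3.10.9 were used.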

Additional observations from a re-analysis of the deposited data

How the results depend on the processing

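Of 100 alternatives to 18 results, 74 kept direction and call or stayed within the spread of the replicates or the exact binomial interval. Part of this count was fixed in advance. With 2 replicates, a value with 1 left out always lies within their SD of the mean. A minimum of 1301 bp removed no replicate cluster, so it could not change the replicate values. Series values without a test were judged by the SD of the replicates. For the median gap this SD was 11927.8 bp, above the series median of 3753 bp itself, so a move could hardly be called. Series median gaps of 5061 bp (upper 50% by score), 5196 bp (neighbours merged) and 6741 bp (minimum of 1301 bp) were thus counted among the 74. For the correlation a margin of 0.1 was used. Restriction to the upper 50% by score turned the density of X over the autosomes to 1.48 in the series list, 1.14 in replicate 1, 1.44 in replicate 2 and 1.29 as the replicate mean. It also gave 100.4 series clusters per Mb, medians of 1401 bp (series) and 1534.5 bp (replicate mean), a replicate mean score difference of 0.067, and 15.2% of series gaps at 1000 bp or less. Merging neighbours within 1000 bp gave 101 series clusters per Mb, a median of 1537 bp and, by construction, 0% of gaps at 1000 bp or less in all lists. A minimum of 1301 bp, which removes series clusters by construction, left 75.2 per Mb with a median of 1715 bp and 11.6% of such gaps. With 1 Mb or nothing left out at the arm ends, such gaps made up 18.97% and 18.98%, and the median length over replicates was 1497.5 and 1492.5 bp. Overlap of at least 50% of both clusters lowered the shared part to 8.55% of replicate 1 and 13.3% of replicate 2, and a reach of 1000 bp raised it to 16.1% and 24.5%. The correlation of window counts was 0.459 at 500 kb and 0.382 with moved windows. With 1 replicate left out, X had 13.5 to 21.0 clusters per Mb, a density ratio of 0.636 to 0.717, a median length of 1507 to 1515.5 bp, a score difference of 0.079 to 0.13, a median gap of 28544 to 45412.5 bp and 0.806 to 2.08% of gaps at 1000 bp or less. Apart from the effects of construction, the cause was not tested. No paired analysis was possible because the replicate numbers are shared by the ChIP and input groups, and the input libraries have no list of their own; differences between X and autosomes were taken within each replicate.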

Other observations

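The 3 highest scores of the series list on the X interior belonged to clusters of its minimum length and were found in neither replicate. Of all series clusters on the X interior, 75.2% were in neither, against 71.9% over all sequences. In the shortest of 5 length classes only 27 of 455 (5.93%) overlapped a replicate, and no replicate cluster was shorter than 1301 bp. No autosome share by length class was set beside the 5.93%. X:2315962-2316962 and X:5421514-5422514 both scored 2.69 at the minimum length of 1001 bp, followed by X:19831558-19832558, also of 1001 bp, at 1.73. As a linear ratio, 2.69 is 5.00 times the most frequent score of the list, 0.36. That most frequent score was held by 18 X interior clusters (0.790%) and by 2.20% of those on the autosome interiors. The next highest, X:20179802-20181012, of 1211 bp, scored 1.11, and the highest replicate 1 cluster of the X interior, X:20177537-20179036, with a score of 1.11, lay just before it without touching it. In the shortest of 5 length classes of X clusters, at 1001 to 1107 bp, the median score was 0.50, above the 0.44 of the middle class and close to the 0.49 of the longest. On the autosome interiors the highest series score was 2.17 (2L), 2.82 (2R) and 3.36 (3L and 3R). A score as high as 2.69 was thus not particular to X.

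Replicate clusters scored higher than the series clusters they overlapped on X. This held for 374 of 381 overlaps in replicate 1, with a median difference of 0.14, and for all 239 in replicate 2, with 0.31. The series score followed that of replicate 1 with a rank correlation of 0.589 over 381 overlaps and that of replicate 2 with 0.285 over 239. The name of the series list marks it as made from these replicates, so some relation is built in.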
